A study of Rattus norvegicus with 6 samples.

Results

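Ldha, Kdm4b and Id2 are genes known to be switched on in low oxygen by the hypoxia-inducible factor HIF. They were measured in rat BMSCs, the mesenchymal stem cells of bone marrow. All 3 were lower on every array labelled hypoxia than on every array labelled normoxia, as were 22.2% of all detected probes. Ldha, Kdm4b and Id2 are 3 of the 91 genes that could be given a name on arrays holding 38804 probes that are not controls. The members were chosen by their names as HIF targets with their values on these arrays already known. Kdm4b and Id2 come from a list that the study gives under headings of empty vector and overexpression of a long non-coding RNA. The values in that list match these same arrays, so the choice of these genes was not independent of them. The changes of the members are therefore given as a description, with no p-value, and support nothing further.

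BMSCs of young Sprague-Dawley rats were kept for 48 h under normoxia (20% oxygen, 3 samples) or hypoxia (0% oxygen, with nitrogen and carbon dioxide, 3 samples). The sample labels name no other agent or genetic change in either group, and give the same serum-containing medium for both. The labels call the samples biological replicates and do not say whether they came from separate rats, so the spread given here is that between these 6 samples. Total RNA of each sample was hybridized to 1 single-colour Agilent array, on which the brightness of a spot rises with the amount of the transcript that binds it. The question was how the transcripts of BMSCs change when oxygen is withdrawn, as in a necrotic femoral head.

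HIF is a transcription factor whose alpha subunit is marked for destruction by oxygen-dependent hydroxylases and so builds up when oxygen is scarce. It then binds a short DNA element, the hypoxia response element (HRE), and raises transcription of genes for glycolysis, oxygen supply and chromatin control. BMSCs normally live in a marrow with little oxygen and rely strongly on glycolysis. Ldha encodes the A subunit of lactate dehydrogenase, which turns pyruvate into lactate and lets glycolysis run without oxygen. Kdm4b encodes a histone demethylase that itself needs oxygen for its reaction. Id2 encodes an inhibitor of basic helix-loop-helix transcription factors that holds back differentiation.

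The promoter windows of the 3 genes are shown because HIF acts on such sequences, and because the 3 transcripts moved in the same direction. Each window, taken from RefSeq on the assembly GRCr8, runs from 250 bases before to 50 bases after the annotated start, and is printed 5′ to 3′ on the strand of the gene. Capitals mark each match to the HRE core, searched as ACGTG or GCGTG on both strands. The Ldha window is chr1:106507842-106508141 on the plus strand, that of Kdm4b is chr9:1245653-1245952 on the plus strand, and that of Id2 is chr6:47470946-47471245 on the minus strand.
Ldha: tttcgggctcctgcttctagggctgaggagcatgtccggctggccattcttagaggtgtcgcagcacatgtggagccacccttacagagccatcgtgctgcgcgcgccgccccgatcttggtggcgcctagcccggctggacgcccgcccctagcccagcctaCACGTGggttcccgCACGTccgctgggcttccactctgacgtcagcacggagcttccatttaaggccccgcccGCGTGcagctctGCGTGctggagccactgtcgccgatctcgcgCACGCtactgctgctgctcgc
Kdm4b: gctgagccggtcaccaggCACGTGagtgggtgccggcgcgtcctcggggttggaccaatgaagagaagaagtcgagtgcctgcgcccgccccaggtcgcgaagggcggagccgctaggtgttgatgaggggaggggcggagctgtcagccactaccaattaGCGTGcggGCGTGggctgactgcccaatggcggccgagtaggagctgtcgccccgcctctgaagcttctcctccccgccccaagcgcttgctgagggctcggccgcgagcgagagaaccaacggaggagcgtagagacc
Id2: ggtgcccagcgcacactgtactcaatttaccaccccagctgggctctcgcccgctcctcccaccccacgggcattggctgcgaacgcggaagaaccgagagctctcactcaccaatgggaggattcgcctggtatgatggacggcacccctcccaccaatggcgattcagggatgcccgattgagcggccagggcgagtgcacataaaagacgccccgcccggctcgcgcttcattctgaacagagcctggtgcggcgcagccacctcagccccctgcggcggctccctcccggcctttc

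The Ldha window held 6 matches in 5 separate stretches, since the palindrome CACGTG is read on both strands. They lay at -87 to -82, -73 to -69, -14 to -10, -2 to 3 and 30 to 34 relative to the start. The Kdm4b window held 4 matches in 3 stretches, at -232 to -227, -89 to -85 and -81 to -77. The Id2 window held 0, which says only that these letters are not in this window. At least 1 match was present in 41.6% of the 33469 RefSeq promoter windows of the same length. As many stretches as in Ldha occurred in 0.675% of the windows, and as many as in Kdm4b in 5.96%. The windows of the 3 genes were rich in G and C (66.7% for Ldha, 67.7% for Kdm4b and 65.3% for Id2) beside a median of 51.7% over all windows. A match is a description of the sequence, and binding was not measured.

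**Figure D1:**
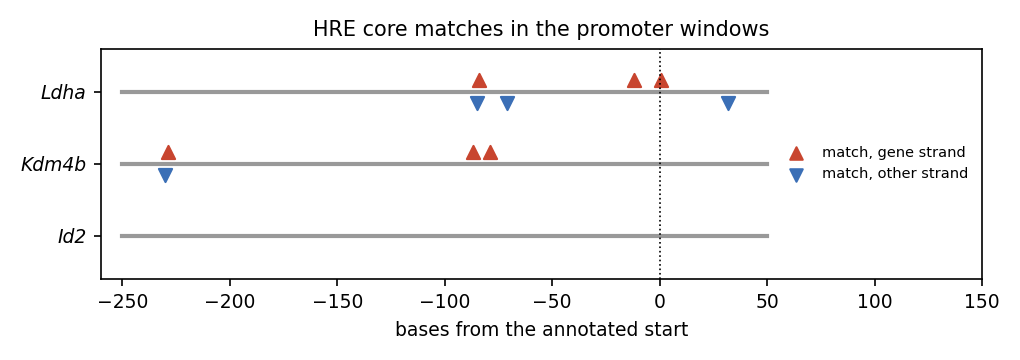
Positions of matches to the HRE core in the promoter windows of Ldha, Kdm4b and Id2, with bases from the annotated start (dotted line) on the horizontal axis. Upward triangles are matches on the strand of the gene and downward triangles those on the other strand; Ldha has 6, Kdm4b 4 and Id2 0.

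The file headers hold 2 scan dates, called here the first and the second scan. Hypoxia replicate 1 shared the first scan with the normoxia samples, and hypoxia replicates 2 and 3 made up the second scan. Whether other handling steps differed along with the scan date was not tested. The second scan had a brighter local background, with a median of 22 to 22.5 against 14 to 16 in the first. Across the 30451 detected probes, hypoxia replicate 1 correlated more closely with the normoxia arrays (Pearson r from 0.985 to 0.987) than with hypoxia replicates 2 and 3 (0.974 each), while those last 2 correlated at 0.994 with each other. Probes are not independent of each other, so these coefficients only describe the arrays. The change of each member, of Pdk3 and of C1qa is therefore also given for hypoxia replicate 1 within its own scan, and without that array.

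Ldha was 2.36-fold lower under hypoxia. In normoxia samples 1, 2 and 3 its normalized log2 intensity was 12.10, 12.17 and 12.04, and in hypoxia samples 1, 2 and 3 it was 11.02, 10.72 and 10.85. The groups did not overlap, and the lowest normoxia value lay 1.02 above the highest hypoxia value. Mean ± SD (n = 3 each) fell from 12.10 ± 0.0661 in normoxia to 10.86 ± 0.152 in hypoxia, a limma log2 fold change of -1.24 (standard error 0.175). The log2 difference from the normoxia mean was -1.08 for hypoxia replicate 1, within the first scan, and averaged -1.32 for hypoxia replicates 2 and 3. In cultures measured as a whole, less Ldha RNA per cell cannot be told apart from fewer cells that express it.

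Before normalization the Ldha probe had a mean intensity of 5951, 5029 and 3632 in the normoxia samples, compared with 1729, 1855 and 1613 in the hypoxia samples. All 3 hypoxia arrays were dimmer than all 3 normoxia arrays at this stage, including the arrays of the second scan, on which the median probe was brighter. The log2 change was then -1.46.

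**Figure D2:**
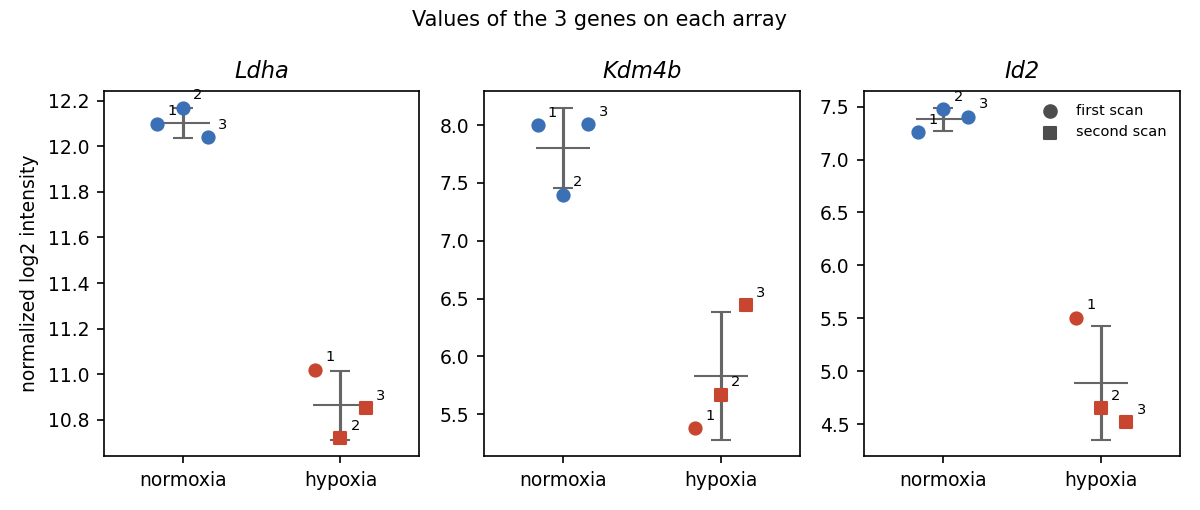
Normalized log2 intensity of Ldha, Kdm4b and Id2 on each array, with numbers giving the replicate, circles the first scan and squares the second; grey bars show the mean and SD of 3 arrays, and each panel has its own axis. In all 3 genes every hypoxia array lies below every normoxia array, and the hypoxia array with the lowest value is replicate 2 for Ldha, replicate 1 for Kdm4b and replicate 3 for Id2.

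The Ldha probe was spotted 10 times on each array, so its value could be followed spot by spot. Of the 60 spots, 5 were marked as outliers by the scanner software and left out, 1 on normoxia array 3, 1 on hypoxia array 2 and 3 on hypoxia array 3. The remaining normoxia spots (29) lay between intensities of 3349 and 6196, and the hypoxia spots (26) between 1496 and 1983. Every normoxia spot was therefore brighter than every hypoxia spot. The SD over the spots of an array was 0.049 to 0.059 log2 units under normoxia and 0.071 to 0.12 under hypoxia, below the change in every case. Averaged over the arrays it was 0.072, and 4 of 37 other probes with 10 spots had a smaller one (median 0.097). When a single spot position was followed through the 6 arrays, the log2 change ranged from -1.27 to -1.18 over the 7 positions with no spot marked as an outlier. With marked spots kept, the other 3 positions gave -1.25, -1.33 and -1.41, the last from a position marked on 2 of the hypoxia arrays. The spots of an array share 1 RNA sample and are not replicates of a condition.

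**Figure D3:**
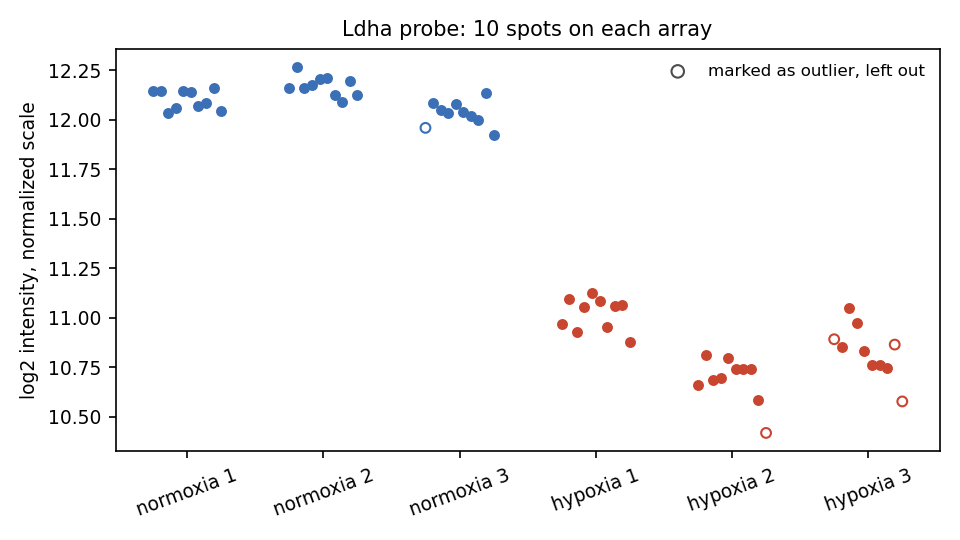
Log2 intensity of each of the 10 Ldha spots on the 6 arrays, set on the normalized scale of the array; filled points were used and open points were marked as outliers and left out. The used normoxia spots lie between 11.92 and 12.27 and the used hypoxia spots between 10.58 and 11.13.

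The array files tie the Ldha probe to a transcript that RefSeq assigns to Ldha, on chromosome 1. GRCr8 also carries 30 annotated Ldha pseudogenes on 14 chromosomes, and the sequence of the probe was not used here, so whether their transcripts bind it was not tested. The names of the Kdm4b and Id2 probes rest on values. The study lists 6 log2 values for each of 30 genes and, separately, of 33 LncRNAs, and those of Kdm4b and Id2 match 1 probe each in the authors' table (largest difference 4e-06 and 5e-06). The next nearest probe differed by 0.566 for Kdm4b and 0.342 for Id2. In the list of 30 genes the values of the hypoxia arrays stand under empty-vector headings and those of the normoxia arrays under overexpression headings. All directions given here, that of Ldha included, follow the sample labels of the deposited arrays, and whether those labels are right was not tested. In the list of 33 LncRNAs, whose columns are headed C and H, the values under C matched the arrays labelled normoxia and those under H the arrays labelled hypoxia for 33 of 33. The headings of the first list thus differ both from the labels and from the other list, for 30 of its 30 genes, Kdm4b and Id2 included. Why they do was not tested.

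Kdm4b was 3.93-fold lower under hypoxia. Normoxia samples 1, 2 and 3 had normalized log2 intensities of 8.001, 7.40 and 8.01, compared with 5.38, 5.67 and 6.44 in hypoxia samples 1, 2 and 3. The groups were separated by 0.957, but Kdm4b had the widest spread of the 3 genes in both groups. Mean ± SD (n = 3 each) went from 7.80 ± 0.349 in normoxia to 5.83 ± 0.55 in hypoxia, a log2 fold change of -1.97 (standard error 0.256). Hypoxia replicate 1, in the scan of the normoxia arrays, showed the deepest decrease, at -2.42 from the normoxia mean. The hypoxia arrays of the second scan averaged -1.75. This order was the reverse of that in Ldha and Id2.

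The Kdm4b probe had 1 spot per array, and it was detected above background on all 6. Its intensity was 317, 169 and 201 in normoxia, compared with 30.3, 75.9 and 102 in hypoxia. The uncorrected spot was 12.6 to 19.5 times its local background under normoxia and 3.15 to 5 times under hypoxia. RefSeq annotates 10 transcripts of Kdm4b on chromosome 9, and which of them the probe binds was not tested.

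Id2 was 5.62-fold lower under hypoxia, a larger decrease than that of Kdm4b over all arrays but a smaller one within the first scan (log2 difference -1.87 for Id2 and -2.42 for Kdm4b). The normalized log2 intensity was 7.26, 7.48 and 7.41 in normoxia samples 1, 2 and 3, and dropped to 5.51, 4.65 and 4.52 in hypoxia samples 1, 2 and 3. The lowest normoxia value lay 1.75 above the highest hypoxia value. Mean ± SD (n = 3 each) was 7.38 ± 0.111 in normoxia beside 4.89 ± 0.537 in hypoxia, a log2 fold change of -2.49 (standard error 0.276). Hypoxia replicate 1 had the smallest decrease, with a log2 difference from normoxia of -1.87 within the first scan, whereas hypoxia replicates 2 and 3 averaged -2.80.

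On the Id2 probe, likewise with 1 spot per array, the intensity was 183, 178 and 129 in normoxia, compared with 33.2, 39.9 and 31.8 in hypoxia. The spot passed detection on all 6 arrays, but under hypoxia the uncorrected spot was 3.43, 2.19 and 1.88 times its local background. The size of the Id2 decrease thus rests on dim hypoxia spots. With the normexp background correction and an offset of 50, which shrinks the changes of dim probes by its construction, it was -1.41 for Id2 and -1.24 for Kdm4b, and the bright Ldha probe gave -1.22.

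Of the 3 members, 3 passed a Benjamini-Hochberg adjusted p under 0.05 with a change over 2-fold in the downward direction (limma), a threshold that 2.71% of the 30451 detected probes passed in that direction. Every hypoxia array lay below every normoxia array for 3 of the 3, and for 22.2% of all detected probes. Ldha no longer passed the first threshold without both arrays of replicate 2, Kdm4b without normoxia replicate 1, normoxia replicate 3 or hypoxia replicate 2, and 0 of the 3 passed with scan and replicate number both as blocks or with no detection filter. As the members were known from these values, nothing is read from either count. A lower log2 fold change was found for 3.01% of the detected probes in the case of Ldha, 0.755% for Kdm4b and 0.351% for Id2, and the median over all detected probes was -0.0022.

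**Figure D4:**
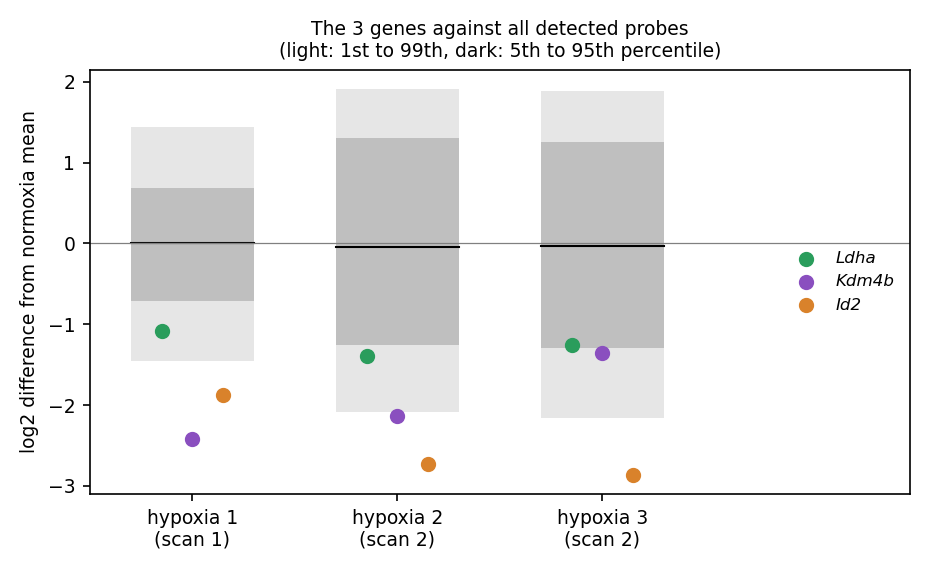
Log2 difference of each hypoxia array from the normoxia mean for Ldha, Kdm4b and Id2 (points), over the range of the 30451 detected probes (dark bars, 5th to 95th percentile; light bars, 1st to 99th; black line, median). All probes spread more widely on hypoxia replicates 2 and 3 (5th percentile -1.26 and -1.30) than on replicate 1 (-0.708), whereas Kdm4b lies lowest on replicate 1.

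Relative to all probes of the same array, the position of the members also differed between the hypoxia samples. On hypoxia replicate 1 the share of detected probes with a lower difference from the normoxia mean was 2.27% for Ldha, 0.236% for Kdm4b and 0.486% for Id2. On hypoxia replicate 2 it was 3.85%, 0.897% and 0.361%, and on hypoxia replicate 3 it was 5.46%, 4.43% and 0.351%. The share stayed below 1% on all 3 arrays for Id2, and for Kdm4b on replicates 1 and 2.

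The wider HIF pathway could hardly be followed. Of 72 HIF targets and pathway components with a symbol in the annotation, 69 could be given no probe, among them the subunit gene Hif1a, the hydroxylase gene Egln1 and the targets Vegfa, Slc2a1 and Pgk1. The members were the only 3 of these 72 with a name, but the list does not hold every known HIF target. Of 27 glycolysis and lactate genes, of 18 histone lysine demethylases and of 18 ID proteins and their partners, 1 each was named, and in each case it was the member itself. Pdk3 was outside these lists and was singled out after its values were seen, so that its change is a description too. It encodes a pyruvate dehydrogenase kinase, which inhibits the conversion of pyruvate to acetyl-CoA in mitochondria and is itself a known HIF target. Its probe, with 10 spots, had log2 values of 7.28, 7.38 and 7.28 in the normoxia samples, compared with 6.49, 5.48 and 5.62 in the hypoxia samples. Every hypoxia array lay below every normoxia array, as for 22.2% of all detected probes. The log2 fold change was -1.45 (standard error 0.26), and Pdk3 did not pass the threshold that the members passed (limma, adjusted p 0.0508). Within the first scan the log2 difference was -0.818, which is under 2-fold, and without hypoxia replicate 1 it was -1.76. Over the 18 alternatives tried it ranged from -1.78 to -0.789, and Pdk3 passed the threshold in 7 of them.

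On these arrays cell identity could be checked only in part. The study itself identified its BMSCs by flow cytometry of surface antigens and by induced differentiation. None of 11 BMSC markers had a named probe. Of 12 haematopoietic markers 1 had one, C1qa, a complement gene of macrophages. C1qa was named by values that the study lists and that match these arrays, so it was not chosen independently of them. It was detected in both groups, at log2 values of 10.01, 9.57 and 9.99 in normoxia compared with 7.91, 7.89 and 7.80 in hypoxia, and so was lower under hypoxia together with the members (log2 fold change -1.99). Its log2 difference was -1.94 for hypoxia replicate 1 within the first scan and -2.01 without that array. Its part in their decrease was not tested.

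Among 81 named probes detected on all 6 arrays, the genes most like each member were taken by Pearson correlation over the 6 log2 values. For Ldha they were LOC102547591 (0.996), Nsg1 (0.995), Lama5 (0.994), Notch1 (0.994) and LOC102553043 (0.993). For Kdm4b they were Tifab (0.969), C1qa (0.941), LOC102547591 (0.925), Sgo2 (0.92) and Celf3 (0.912). For Id2 they were Tnn (0.999), Lama5 (0.998), LOC103695196 (0.997), Fgf2 (0.997) and LOC102550366 (0.996). Between the members r was 0.987 for Ldha with Id2, 0.9 for Ldha with Kdm4b and 0.841 for Kdm4b with Id2. All of these values are dominated by the gap between the groups, and 63 of the named genes took their names from values listed by the study.

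**Figure D5:**
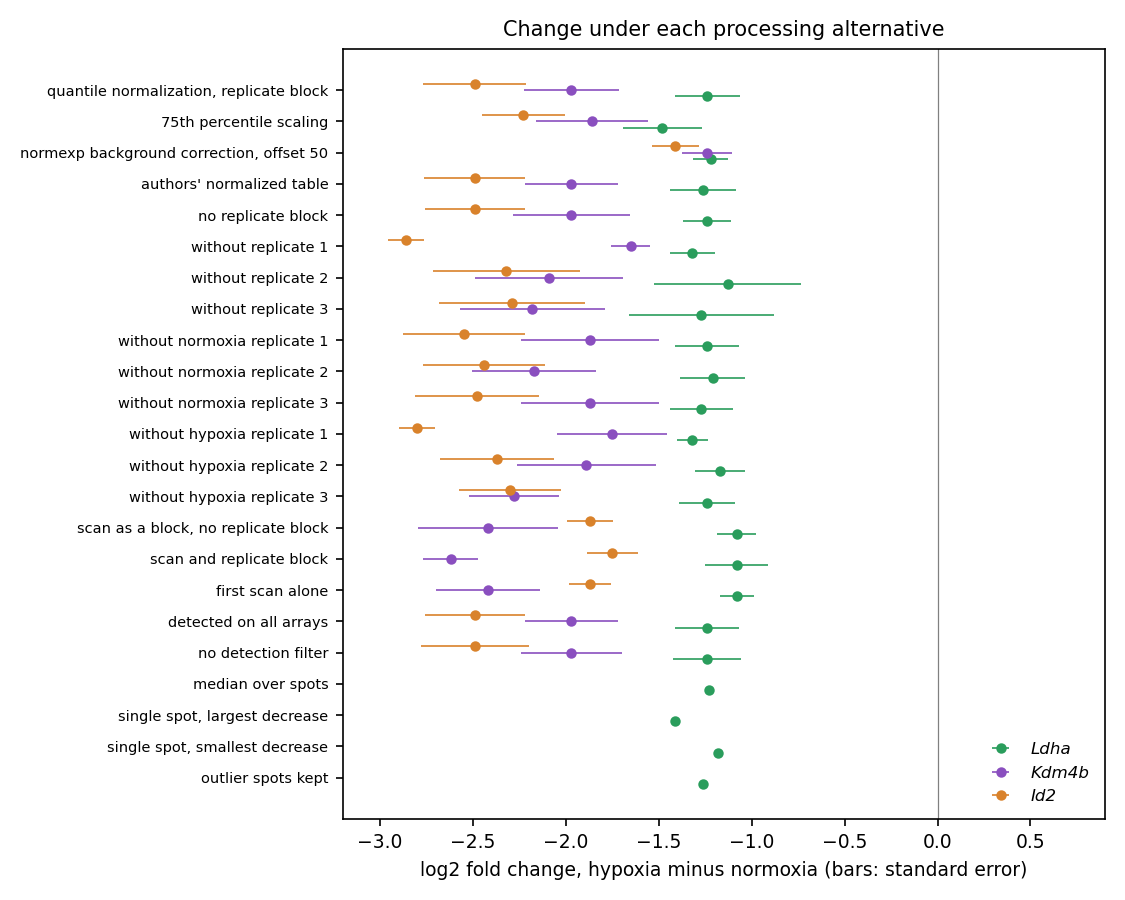
Log2 fold change (hypoxia minus normoxia) of Ldha, Kdm4b and Id2 under each way of processing, with bars for the standard error; the last 4 settings concern only the spots of Ldha and have no error. All points lie below 0, Ldha between -1.48 and -1.08, Kdm4b between -2.62 and -1.24, and Id2 between -2.86 and -1.41.

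The direction was the same for each member under every setting in the plot of alternatives. Several of these settings could not have reversed it, since the groups did not overlap. Under 75th percentile scaling, the median of all detected probes moved to 0.164, and the log2 fold changes were -1.48 for Ldha, -1.86 for Kdm4b and -2.23 for Id2. Without hypoxia replicate 1 and without the block they were -1.32, -1.75 and -2.80. With the scan as a block they were -1.08, -2.42 and -1.87, in a fit that sets hypoxia replicate 1 alone against the normoxia arrays of its scan. The scan and hypoxia cannot be told apart for the other hypoxia arrays.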

How the data were processed

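Per the file headers, the scanner images were read with Agilent Feature Extraction 11.0.1.1, and the deposited intensity values are background-corrected and not normalized between arrays. The authors also deposited a table of log2 values, quantile-normalized in GeneSpring, which served here as an alternative. The detection, outlier and control flags deposited with each spot were used as filters.

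After removal of control and outlier spots, the log2 intensities of each probe's spots were averaged, and 38733 of 38804 probes were quantile-normalized (71 lacked a value on an array). Detection on at least 3 of the 6 arrays left 30451 probes, which were fitted in limma 3.58.1 (R 4.3.3) with the replicate number as a block, since the methods name a paired test, with Benjamini-Hochberg adjustment over all of them. The fit was tested on simulated data. Accessions named 30 of 48 probes through RefSeq, and 63 genes or LncRNAs were named by values listed in the study, 91 different genes in all. The members and gene lists were chosen with earlier results of these data known. Named genes are the members, list genes with a probe, and the 5 most correlated named probes of each member, besides Pdk3, which was added after its values were seen. Fits that left out a single array had no replicate block. Alternatives covered scaling, background, the authors' table, filters, blocks, scans, left-out arrays, other tests and single spots. Precision is limited by 3 arrays per group and, for dim probes, by signal over background.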

Additional observations from a re-analysis of the deposited data

How the results depend on the processing

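Ldha was lower under hypoxia in all 22 alternatives, Kdm4b in all 18 and Id2 in all 18. As the groups did not overlap in any member, leaving out arrays could not reverse this direction. Dropping the replicate block or changing the detection filter leaves the fold change itself as it is. The counts of alternatives are thus no support for the direction. Ldha moved by more than its spread with 75th percentile scaling (-1.48), with the scan as a block, alone or with the replicate block, and in the first scan alone (-1.08 each), and for 1 single spot position (-1.41) whose spot was marked as an outlier on 2 hypoxia arrays and kept in that value. Kdm4b moved with normexp (-1.24) and with the scan and replicate block together (-2.62). Id2 moved with normexp (-1.41), with the scan as a block and in the first scan alone (-1.87 each), and with both blocks (-1.75). Same-numbered arrays did not deviate together (r of -0.19, -0.064 and -0.089). This cannot decide whether they are pairs, since each group has 3 arrays and the hypoxia arrays are split by scan. Without the replicate block, 386 probes were higher and 1150 lower under hypoxia, the log2 fold changes of the 3 members were the same as with it and all 3 stayed past the threshold. Leaving out arrays or numbered pairs gave -1.32 to -1.13 for Ldha, -2.28 to -1.65 for Kdm4b and -2.86 to -2.29 for Id2. The cause of these shifts was not tested.

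Over all probes, 281 were higher and 826 lower under hypoxia. The higher count was 1243 with 75th percentile scaling, 633 when the replicate block was swapped for a scan block and 635 in the first scan alone, both of which rest on hypoxia replicate 1 as the only hypoxia array set against normoxia, assumed to vary like the others. With 75th percentile scaling, 919 were lower. normexp gave 171 higher and 408 lower, no detection filter 57 and 122, and the scan and replicate block together 0 and 0 in limma (807 and 883 at an unadjusted p under 0.05 and over 2-fold). The methods' paired t-test gave 1 and 0 after adjustment, and 327 and 924 without it. Student's t-test gave 226 and 607 after adjustment, and 520 and 1311 without it. Leaving out arrays or pairs gave 202 to 2669 higher and 500 to 2741 lower, the most without both arrays of replicate 1. The 75th percentile share of higher calls was 57.5%, against 25.4%. Among the alternatives, the first scan alone and the kept outlier spots were added after the data were seen. Id2 and Kdm4b are limited by dim hypoxia spots.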
